A study of Mus musculus with 16 samples.

Results

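Complex I (NADH:ubiquinone oxidoreductase) is the first enzyme of the mitochondrial respiratory chain, and most of its subunits and several of its assembly factors are encoded in the nucleus under symbols that begin with Nduf. The 46 genes described here are all genes of a kidney cortex count table whose mouse symbol begins with Nduf, carries no -ps ending and has at least 10 reads in 4 or more of 16 libraries. They came from 51 Nduf symbols in a table of 56980 genes. Of the 46, 36 encode complex I subunits: 7 core subunits, 10 accessory subunits of the matrix arm and 19 accessory subunits of the membrane arm. Another 8 encode the assembly factors Ndufaf1 to Ndufaf8. The remaining 2 are Ndufa4, whose product is a subunit of complex IV, and its paralog Ndufa4l2.

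The mice were males on a C57Bl/6J background that carried floxed Degs1 alleles. Degs1 encodes dihydroceramide desaturase, which makes ceramide from dihydroceramide. Degs1fl/fl littermates (fl/fl) were compared with Degs1iGKO mice (iGKO), in which Rosa26-CreERT2 deletes Degs1 globally after tamoxifen. Both genotypes received tamoxifen, 3 mg a day on 5 days from 9 weeks of age, and were operated on at 12 weeks. Ischaemia-reperfusion injury (IRI) was a 28 min clamp on both sides followed by up to 24 h of reperfusion, and the control was sham surgery. Sham and IRI kidneys of either genotype gave 4 libraries each, 16 in all. A library is named by its genotype, operation and replicate number, as in iGKO sham 4. The labels number the replicates without naming animals, so p-values measure the spread between these samples.

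Complex I passes electrons from NADH to ubiquinone and pumps protons across the inner mitochondrial membrane. Its matrix arm holds the flavin, the chain of iron-sulfur clusters and the ubiquinone site, and its membrane arm, built around mitochondrially encoded subunits, holds the proton pumps. Accessory subunits surround the core, and assembly factors join the modules without remaining in the finished enzyme. The kidney cortex is rich in proximal tubule cells, which depend on oxidative phosphorylation for transport.

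Levels are given as CPM, reads scaled to the library's total with TMM factors. All 46 genes passed the filter on low counts, so none was lost before testing. The deepest member was Ndufv1 with 2216 to 6804 reads per library, and the shallowest was Ndufa4l2 with 7 to 103 reads. The symbols outside the rule were Ndufa11b, Ndufb4c and Ndufs6b, which had at least 10 reads in 1 library at most, and the -ps symbols Ndufab1-ps and Ndufb1-ps. Exons of 19 of the 46 members overlap an exon of another gene in GENCODE M21, 17 of them on the opposite strand. The strand setting of the counting is not given in the sources used here, so reads of such pairs could not be told apart. Among the genes named below this touches Ndufs1, Ndufs3, Ndufa2, Ndufa9, Ndufab1, Ndufs6, Ndufa3, Ndufa11, Ndufa13, Ndufb2, Ndufb5, Ndufaf2, Ndufaf3 and Ndufa4l2.

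Per kilobase of transcript, assembly factor mRNAs were the scarcest of the roles in fl/fl sham. Their levels ran from 8.07 CPM per kb (Ndufaf7) to 16.9 CPM per kb (Ndufaf8), with a median of 11.5. Core subunits had a median of 109 CPM per kb, with Ndufv2 the lowest at 70.5. The medians of the accessory subunits were 62.6 CPM per kb in the matrix arm and 88.3 CPM per kb in the membrane arm. The lowest subunit was Ndufb2 at 10.8 CPM per kb, which was divided by a long transcript model of 4371 bases, and the highest was Ndufb9 at 235 CPM per kb. Ndufb2 was thus the subunit whose value lay within the range of the assembly factors. Ndufa4 stood above every complex I gene of the set at 269 CPM per kb.

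Total counts were 12704273 to 18816343 per library. Degs1, the targeted gene, was at 84.0 to 113 CPM in fl/fl sham against 40.2 to 71.7 CPM in iGKO sham, and at 88.8 to 133 CPM in fl/fl IRI against 44.7 to 59.8 CPM in iGKO IRI. In an exact two-sided permutation test both comparisons gave p = 0.0286, the smallest value that 4 against 4 allow. The proximal tubule marker Slc34a1 was at 4040 to 5536 CPM in the 8 sham libraries, and skeletal muscle markers summed to at most 1.11 CPM in any library. Libraries stood apart in base composition. The deviation of a gene's level from its mean rose with transcript GC content (Spearman's rho over 14158 coding genes) most in iGKO sham 4 (0.687), then in iGKO IRI 4 (0.351), fl/fl IRI 1 (0.337), iGKO IRI 3 (0.282) and fl/fl sham 2 (0.208). In the other 11 libraries rho lay between -0.456 and -0.071. The 5 libraries with rho above 0.1 are those said below to have a GC tilt. This cut is on 1 side only, so libraries with rho far below 0 were kept. Mitochondrially encoded genes took 0.443% of counts in iGKO sham 4 and 2.05% to 6.48% in the other 15 libraries. Fat markers (Adipoq, Plin1, Cidec, Ucp1 and Lep) summed to 466 CPM in fl/fl sham 3 and 589.8 CPM in iGKO IRI 3, against 0.52 to 86.4 CPM in the other 14 libraries. Ucp1, the uncoupling protein of brown fat, was at 279.9 and 283.5 CPM in those libraries and at most 27.6 CPM elsewhere. The part of fat RNA in the Nduf levels of these libraries was not tested. In bulk tissue, fewer cells of a type and less RNA per cell cannot be told apart.

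The first comparison asked how the injury changed these genes in fl/fl kidneys. After IRI, 15 of the 46 members were lower in fl/fl and 0 were higher (edgeR quasi-likelihood test, Benjamini-Hochberg adjusted p under 0.05 over 17972 genes). Over all genes tested, 7.01% were called lower and 8.46% higher. The fall reached 14 of 36 subunits (3 of 7 core, 5 of 10 matrix arm and 6 of 19 membrane arm) and 1 of 8 assembly factors. The log2 change was below 0 for 45 of 46 members against 49.2% of all genes, and ran from -0.87 for Ndufa6 to 0.03 for Ndufa2. Its median was -0.50 over the subunits, -0.32 over the assembly factors and 0.009 over all genes. For 19 members (16 subunits and 3 assembly factors) every fl/fl IRI library lay below every fl/fl sham library, a pattern that 9.82% of all genes showed. No member had every injured library above the sham libraries (9.65% of all genes). An unadjusted p under 0.05 was found for 25 members, all lower, and for 30.7% of all genes in either direction. DESeq2 called 19 members lower, with 9.57% of all genes called lower, and 0 members higher.

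The count of 15 depended on single libraries. Leaving out fl/fl IRI 1, which carries a GC tilt, gave 24 members, with 11.6% of all genes called lower. Leaving out fl/fl IRI 1 together with iGKO sham 4 gave 30 (28 subunits and 2 assembly factors, with 14.2% of all genes). Leaving out all 5 libraries with a GC tilt gave 34 (31 subunits and 3 assembly factors, with 13.5% of all genes). The fl/fl libraries left in still differed in their rho with GC content. It was -0.358, -0.218 and -0.269 in fl/fl sham 1, 3 and 4 and -0.071, -0.114 and -0.12 in fl/fl IRI 2 to 4. Leaving out any other library of the fl/fl groups gave 4 to 8, and the share of all genes called lower was also smaller. Without fl/fl sham 1 the count was 4 (4.05% of all genes), and without fl/fl sham 2 it was 8 (5.18%). It was 5 without fl/fl sham 3 (3.48%) and 6 without fl/fl sham 4 (3.86%). It was 7 without fl/fl IRI 2 (5.04%), 4 without fl/fl IRI 3 (3.07%) and 5 without fl/fl IRI 4 (4.17%). Each of the 16 libraries was left out in turn, and Ndufa6, Ndufv3, Ndufs5 and Ndufa10 were called lower in all 16 fits and under all 10 other settings tried. Ndufs8 was called in 14 of the 16 fits, and the other 10 called members in 2 to 11.

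**Figure D1:**
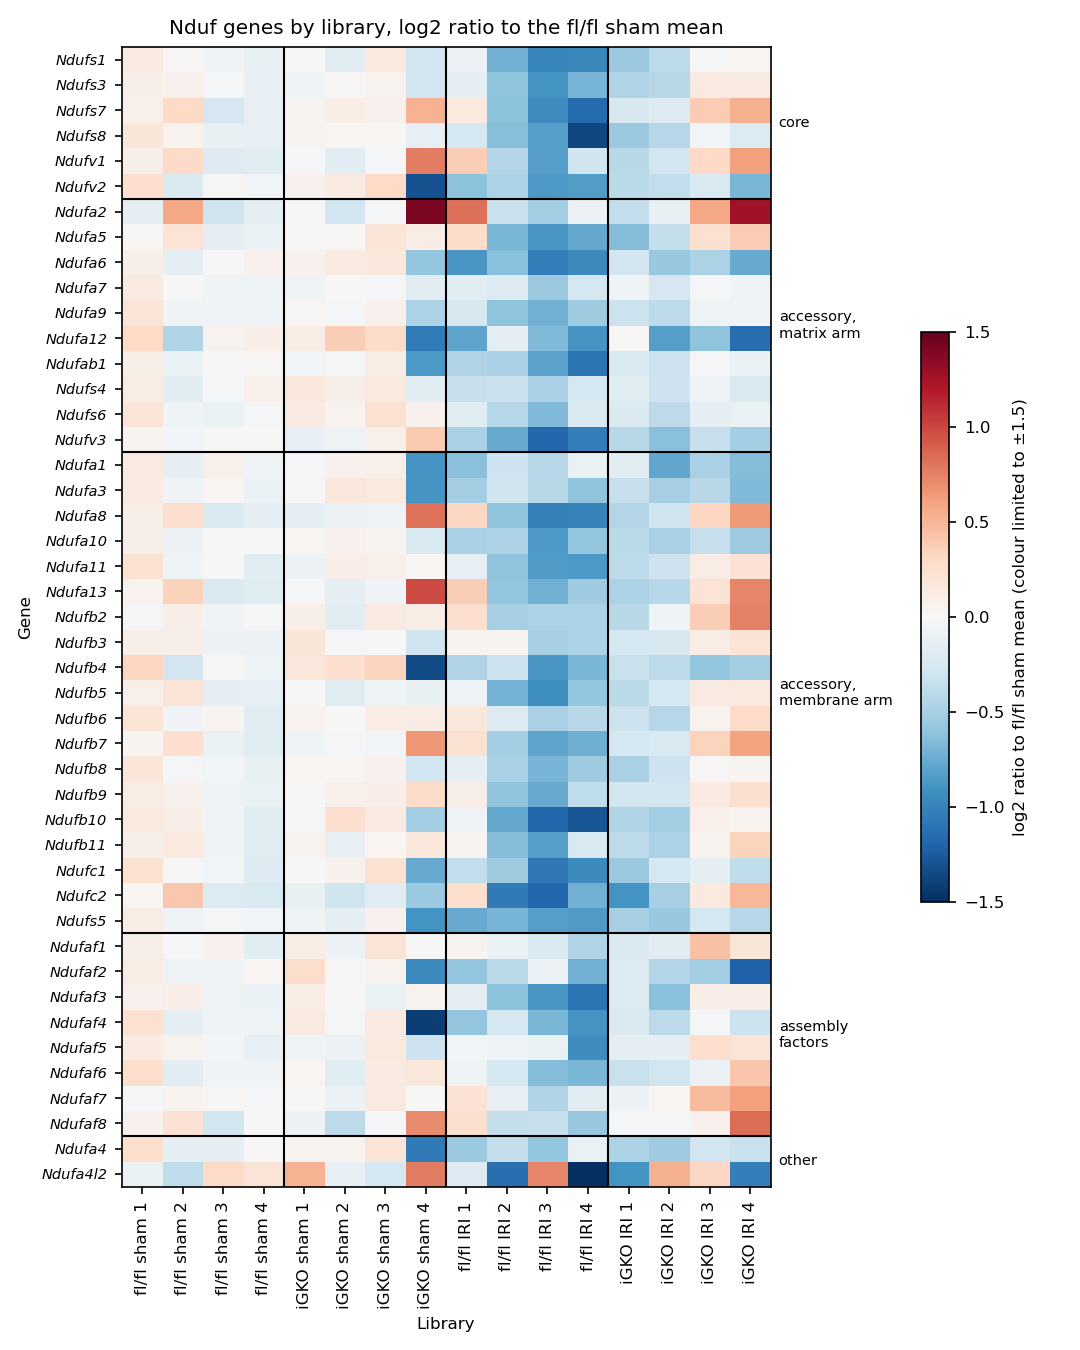
Level of 45 of the 46 Nduf genes in each of the 16 libraries as a log2 ratio to the mean of the 4 fl/fl sham libraries (blue lower, red higher, colour limited to 1.5 in either direction), with genes in rows by role and libraries in columns by group. The columns fl/fl IRI 2, 3 and 4 are blue in nearly every row, fl/fl IRI 1, iGKO IRI 3 and iGKO IRI 4 mix red and blue, and iGKO sham 4 holds both the darkest red cell (Ndufa2) and dark blue cells (Ndufaf4, Ndufb4 and Ndufv2).

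Among the core subunits, which carry the flavin and the iron-sulfur clusters, the 2 with the smallest p were Ndufs8 and Ndufs1. Ndufs8, an iron-sulfur subunit near the ubiquinone site, was at 94.3, 86.2, 77.1 and 76.7 CPM in fl/fl sham 1 to 4 and 69.3, 53.5, 46.7 and 32.4 CPM in fl/fl IRI 1 to 4. All 4 injured libraries lay below the sham libraries, with fl/fl IRI 1 the nearest to them. The log2 change was -0.73 (SE 0.18, adjusted p = 0.0159). Ndufs1, the iron-sulfur subunit that takes electrons from the NADH-binding end, was at 322, 298, 283 and 272 CPM in fl/fl sham 1 to 4 and 276, 178, 148 and 149.8 CPM in fl/fl IRI 1 to 4. Here fl/fl IRI 1 reached into the sham range, and the other 3 injured libraries lay far below it. The change in Ndufs1 was -0.64 (SE 0.20, adjusted p = 0.0367). The third called core subunit, Ndufs3, part of the ubiquinone-binding module, went from 107 ± 6.90 CPM to 72.2 ± 16.7 CPM (SD, n = 4 each) with no overlap of the groups, a log2 change of -0.56 (SE 0.17, adjusted p = 0.0383). Ndufv2, an iron-sulfur partner of the flavin subunit, was at 141, 102, 119.9 and 115 CPM in fl/fl sham 1 to 4 and 77.5, 85.2, 65.1 and 66.6 CPM in fl/fl IRI 1 to 4. Its groups did not overlap either, but the change of -0.70 (SE 0.25, adjusted p = 0.064) did not pass. Ndufs7, on the ubiquinone side, and Ndufv1, the flavin- and NADH-binding subunit, had changes of -0.57 and -0.25 that did not pass, and fl/fl IRI 1 overlapped the sham libraries in both.

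In the accessory part of the matrix arm the largest falls of the whole set were found. Ndufa6, a small LYR-motif protein that binds the mitochondrial acyl carrier protein, was at 97.8, 82.8, 92.03 and 95.8 CPM in fl/fl sham 1 to 4 and 50.3, 59.4, 44.96 and 47.3 CPM in fl/fl IRI 1 to 4. The highest injured library lay well below the lowest sham library. Its level after IRI was 54.8% of that after sham, a log2 change of -0.87 (SE 0.16, adjusted p = 0.0034). Ndufv3, an accessory subunit at the NADH end, was at 93.2, 88.00, 90.00 and 90.96 CPM in fl/fl sham 1 to 4 and 64.6, 53.4, 39.8 and 44.2 CPM in fl/fl IRI 1 to 4. The sham libraries lay close together, and all injured libraries lay below them. The level fell to 55.8% of sham, a log2 change of -0.84 (SE 0.15, adjusted p = 0.00315).

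The other called matrix-arm subunits were Ndufab1, Ndufa9 and Ndufs4. Ndufab1, the mitochondrial acyl carrier protein itself, was at 91.97, 80.3, 85.9 and 86.98 CPM in fl/fl sham 1 to 4 and 63.04, 61.7, 49.2 and 40.4 CPM in fl/fl IRI 1 to 4, which did not overlap, and its change was -0.69 (SE 0.19, adjusted p = 0.0216). Ndufa9, in the ubiquinone module, changed by -0.52 (SE 0.15, adjusted p = 0.0272), and Ndufs4, a subunit that stabilises the NADH-binding module, by -0.36 (SE 0.12, adjusted p = 0.0458). In both, every injured library lay below every sham library. Not called were Ndufa5 (-0.44), Ndufa7 (-0.29), Ndufs6 (-0.36), Ndufa12 and Ndufa2. Ndufa12, the structural relative of the assembly factor Ndufaf2, was at 60.7, 35.9, 51.2 and 52.8 CPM in fl/fl sham 1 to 4 and 28.4, 44.8, 31.00 and 26.5 CPM in fl/fl IRI 1 to 4. Replicate 2 of either group made them overlap, and the change of -0.62 (SE 0.29, adjusted p = 0.165) did not pass. Ndufa2, a subunit with a thioredoxin-like fold, was at 85.02, 139, 75.4 and 84.4 CPM in fl/fl sham 1 to 4 and 166, 73.8, 64.9 and 87.9 CPM in fl/fl IRI 1 to 4. It was highest in fl/fl sham 2 and fl/fl IRI 1, the fl/fl libraries with a GC tilt. It was the 1 member with a change above 0, 0.03 (SE 0.41, adjusted p = 0.971), which was -0.34 without fl/fl IRI 1.

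In the membrane arm, 6 of 19 accessory subunits were lower and all 19 had a log2 change below 0. Ndufa10, a relative of the deoxynucleoside kinases, was at 185, 164, 174 and 174 CPM in fl/fl sham 1 to 4 and 124, 127, 95.8 and 116 CPM in fl/fl IRI 1 to 4. The groups were well separated, and the level fell to 66.4% of sham, a log2 change of -0.59 (SE 0.12, adjusted p = 0.00555). Ndufs5, a small subunit on the intermembrane space side, was at 30.9, 27.5, 28.2 and 27.7 CPM in fl/fl sham 1 to 4 and 16.9, 17.6, 16.1 and 15.7 CPM in fl/fl IRI 1 to 4. Both groups were tight, fl/fl IRI 1 stood with the other injured libraries, and the fall to 58.00% of sham had a log2 change of -0.78 (SE 0.17, adjusted p = 0.00758). The remaining called subunits were Ndufb10 (-0.74, adjusted p = 0.0493), Ndufc1 (-0.71, 0.0273), Ndufa11 (-0.59, 0.0349) and Ndufb5 (-0.54, 0.0461). Of these, only Ndufc1 had groups without overlap, and in Ndufb10, Ndufa11 and Ndufb5 it was fl/fl IRI 1 that reached the sham range. The 13 membrane-arm subunits that were not called had changes from -0.59 (Ndufb4) to -0.20 (Ndufb3).

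The assembly factors gave 1 call. Ndufaf3, which acts with Ndufaf4 early in building the ubiquinone module, was at 19.04, 19.4, 17.3 and 16.98 CPM in fl/fl sham 1 to 4 and 16.3, 11.8, 9.88 and 8.47 CPM in fl/fl IRI 1 to 4. Every injured library lay below every sham library, with fl/fl IRI 1 next to the sham range, and the change was -0.65 (SE 0.20, adjusted p = 0.0384). Ndufaf4 was at 45.2, 35.1, 37.2 and 37.2 CPM in fl/fl sham 1 to 4 and 25.6, 31.98, 23.9 and 20.9 CPM in fl/fl IRI 1 to 4. The groups did not overlap, but the change of -0.59 (SE 0.25, adjusted p = 0.118) did not pass. Leaving out iGKO sham 4, which lies outside this comparison but enters the shared estimate of spread, gave a nearly equal change of -0.585 with an adjusted p of 0.0107. Ndufaf2, which acts late in assembly and precedes Ndufa12, was at 5.93, 5.19, 5.31 and 5.59 CPM in fl/fl sham 1 to 4 and 3.62, 4.12, 5.18 and 3.29 CPM in fl/fl IRI 1 to 4, the lowest counts of the assembly factors. Its groups were separate by a small margin, and the change of -0.44 (SE 0.27, adjusted p = 0.29) did not pass. The other 5 assembly factors had changes from -0.40 (Ndufaf6) to -0.12 (Ndufaf7), and none passed. Whether subunits and assembly factors differed in their response was not tested.

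**Figure D2:**
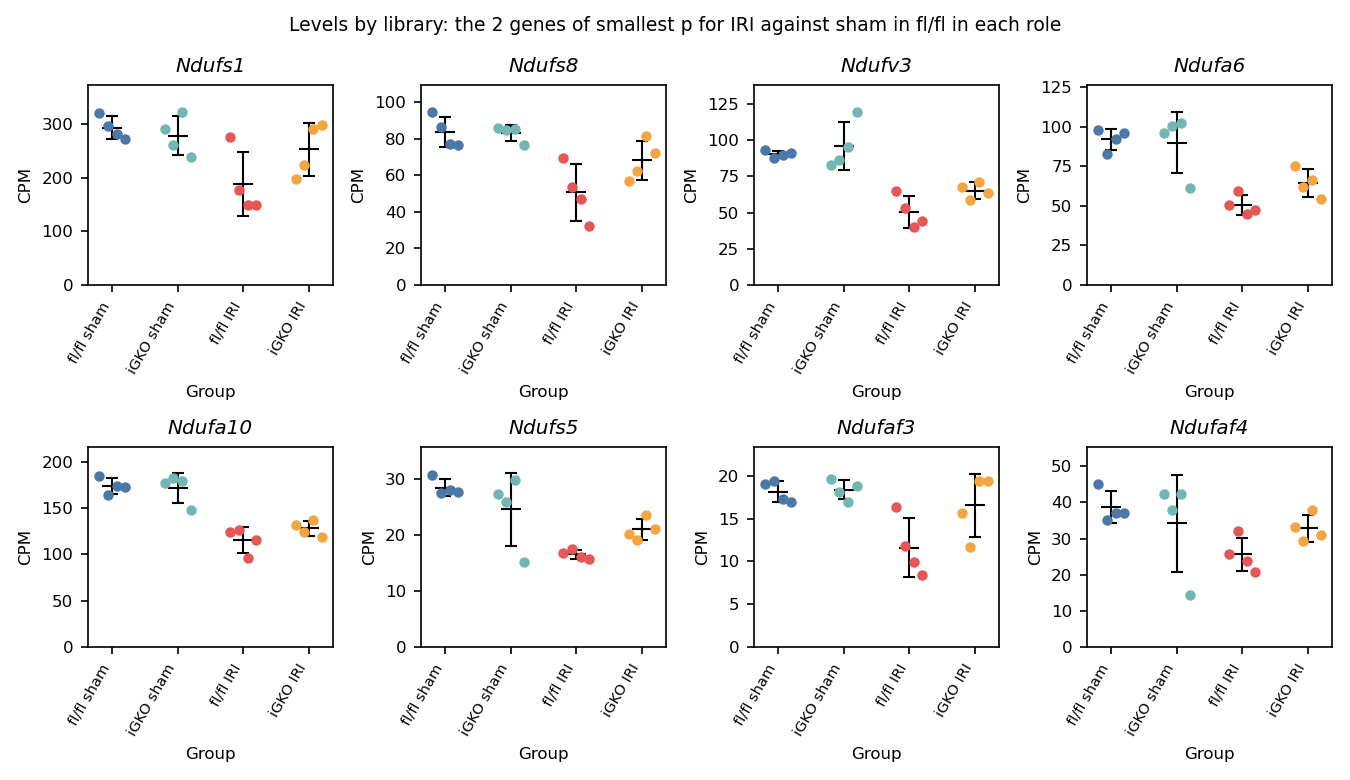
Level (CPM, linear axis from 0) of the 2 genes with the smallest p for IRI against sham in fl/fl in each role, with 1 point per library, a bar at the group mean and whiskers of 1 SD (n = 4 per group). In Ndufv3, Ndufa6, Ndufa10 and Ndufs5 the 4 fl/fl IRI points lie below all fl/fl sham points, whereas in Ndufs1 the point of fl/fl IRI 1 (276 CPM) lies among the sham points.

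The sequence before the annotated start is printed for the 4 subunits called under every setting and for the 1 called assembly factor. These genes were picked by their calls after IRI in fl/fl, and the other called members are not shown. The windows come from RefSeq (build GRCm38.p6, whereas the counts were made on GRCm39). They hold the 250 bases before the start, 5′ to 3′ on the gene's strand. Capitals mark exact matches, on either strand, to the NRF1 consensus, the cyclic AMP response element TGACGTCA (CRE) or the GC box GGGCGG.
Ndufv3 (chr17:31519865-31520114, forward strand): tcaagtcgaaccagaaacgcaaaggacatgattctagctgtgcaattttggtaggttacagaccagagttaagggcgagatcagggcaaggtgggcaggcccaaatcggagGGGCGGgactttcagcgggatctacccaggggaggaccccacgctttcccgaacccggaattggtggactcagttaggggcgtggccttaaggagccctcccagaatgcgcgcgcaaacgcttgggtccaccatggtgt
Ndufa6 (chr15:82354292-82354541, reverse strand): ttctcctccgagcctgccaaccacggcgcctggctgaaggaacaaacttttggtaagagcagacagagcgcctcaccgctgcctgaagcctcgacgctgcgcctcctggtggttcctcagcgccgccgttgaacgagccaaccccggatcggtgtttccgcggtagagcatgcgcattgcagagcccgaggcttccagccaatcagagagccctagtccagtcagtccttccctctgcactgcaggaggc
Ndufs5 (chr4:123718187-123718436, reverse strand): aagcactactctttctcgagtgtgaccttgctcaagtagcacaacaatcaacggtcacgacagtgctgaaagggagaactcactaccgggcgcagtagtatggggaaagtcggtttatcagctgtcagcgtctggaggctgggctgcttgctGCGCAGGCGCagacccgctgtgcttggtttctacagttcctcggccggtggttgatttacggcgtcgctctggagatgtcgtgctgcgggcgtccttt
Ndufa10 (chr1:92473759-92474008, reverse strand): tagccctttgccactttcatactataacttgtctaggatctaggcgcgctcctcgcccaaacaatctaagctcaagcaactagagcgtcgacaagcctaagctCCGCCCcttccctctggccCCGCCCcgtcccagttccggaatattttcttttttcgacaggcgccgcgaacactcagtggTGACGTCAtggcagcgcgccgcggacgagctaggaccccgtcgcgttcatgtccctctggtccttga
Ndufaf3 (chr9:108567437-108567686, reverse strand): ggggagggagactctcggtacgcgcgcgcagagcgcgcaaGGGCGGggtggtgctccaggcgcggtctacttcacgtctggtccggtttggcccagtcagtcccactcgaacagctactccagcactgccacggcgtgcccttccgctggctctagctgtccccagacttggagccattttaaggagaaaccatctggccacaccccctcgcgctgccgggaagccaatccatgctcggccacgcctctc
These genes are ENSMUSG00000024038, ENSMUSG00000022450, ENSMUSG00000028648, ENSMUSG00000026260 and ENSMUSG00000070283 in the table.

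No motif was common to the 5 printed stretches. Ndufs5 held the NRF1 consensus, Ndufa10 a CRE and a pair of GC boxes, Ndufv3 and Ndufaf3 a GC box, and Ndufa6 none. Past its start, Ndufa6 held the NRF1 consensus at bases 24 to 33 and a GC box at bases 43 to 48. NRF1, YY1 and the oestrogen-related receptors are known regulators of genes for mitochondrial proteins. Windows of 300 bases, reaching past the start, were found for 40 of the 46 members. The NRF1 consensus stood in 9 of the 40 (22.5%) and in 5.19% of 27025 genes with a window. The YY1 consensus stood in 5 (12.5% against 0.995%), the CRE in 3 (7.5% against 2.03%) and the GC box in 21 (52.5% against 38.2%). The ETS letters CCGGAAGT stood in 1 (2.5% against 4.31%), and the letters TCAAGGTCA of the oestrogen-related receptors in 0 (against 0.466%). Matches were counted on both strands. A gene was counted once per motif if any of its windows held a match, and a match to 1 motif could overlap a match to another. Among members with a window, the NRF1 consensus stood in 3 of 14 genes called lower and in 6 of 26 others. The 27025 genes were not limited to those tested here and were not matched for base composition. A match describes the sequence only.

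As a median log2 ratio to the fl/fl sham mean, the 36 subunits stood at -0.14, -0.55, -0.83 and -0.65 in fl/fl IRI 1 to 4, and the 8 assembly factors at -0.05, -0.26, -0.40 and -0.70. In fl/fl sham the subunit medians lay between -0.10 and 0.10 and the assembly factor medians between -0.05 and 0.10. The library fl/fl IRI 1 thus stood nearest to sham in both roles, with 23 of 36 subunits below the sham mean against 35, 36 and 36 in fl/fl IRI 2 to 4. The lowest library was fl/fl IRI 3 for the subunits and fl/fl IRI 4 for the assembly factors. Tubular injury markers (Havcr1, Lcn2, Krt20, Sox9 and Vcam1), all 5 called higher after IRI in fl/fl, summed to 205 CPM in fl/fl IRI 1 and to 1707, 2705 and 2176 CPM in fl/fl IRI 2 to 4. In fl/fl sham the same sum was 21.5 to 61.4 CPM. Proximal tubule markers, of which 6 of 10 were called lower and 0 higher, summed to 16190 CPM in fl/fl IRI 1, to 9337, 4312 and 8112 CPM in fl/fl IRI 2 to 4, and to 19900 to 22170 CPM in fl/fl sham. Thick ascending limb markers (3 of 6 lower) fell from 3972 to 4535 CPM in fl/fl sham to 887 to 2879 CPM in fl/fl IRI, and neutrophil markers (6 of 6 higher) went from 5.38 to 11.5 CPM to 24.2 to 208 CPM. Macrophage markers (0 of 6 called) summed to 891 CPM in fl/fl IRI 1 and to 158, 235 and 80.5 CPM in fl/fl IRI 2 to 4. In fl/fl sham they summed to 124 to 346 CPM. The part of these cell markers in the fall of the Nduf genes was not tested.

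**Figure D3:**
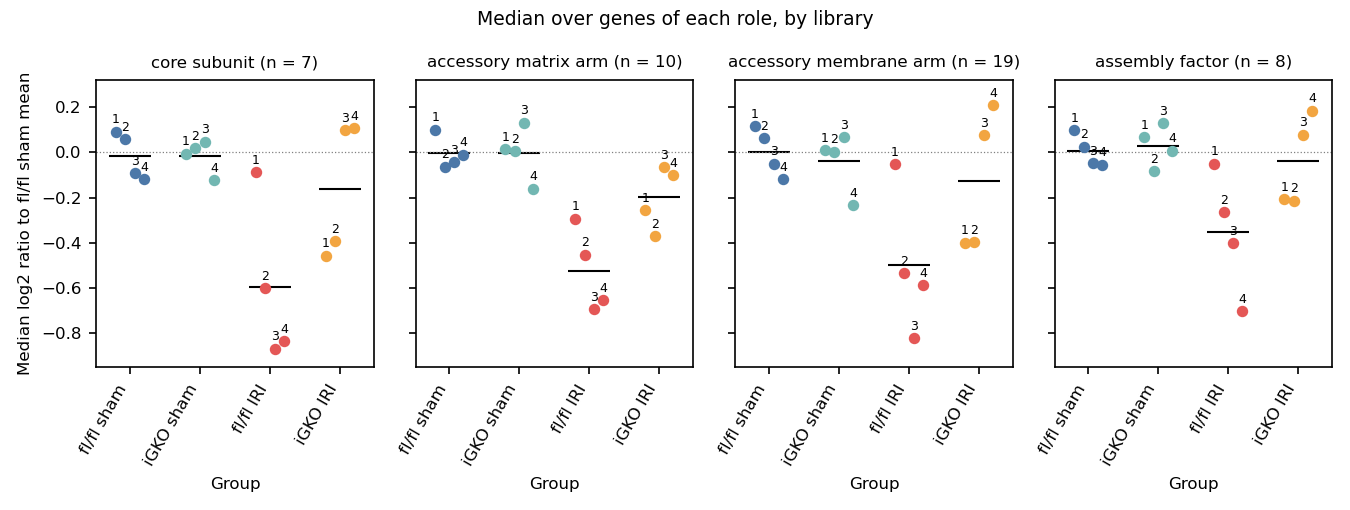
Median log2 ratio to the fl/fl sham mean over the genes of each role, with 1 point per library labelled by replicate number and a line at the group mean, for core subunits (n = 7), accessory subunits of the matrix arm (n = 10) and membrane arm (n = 19) and assembly factors (n = 8). In every panel fl/fl IRI 1 is the highest of its group, and iGKO IRI 3 and 4 lie above iGKO IRI 1 and 2.

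The same operation was then compared within iGKO. No member was called in either direction (edgeR, 0 of 46, with 0% of all genes called), and DESeq2 called 0 members too. An unadjusted p under 0.05 was found for 6 members and for 6.37% of all genes. The log2 change was below 0 for 37 of 46 members (53.6% of all genes), with a median of -0.14 over the subunits and -0.018 over the assembly factors, of which 4 lay below 0 and 4 above. The groups did not overlap for Ndufv3, Ndufa10 and Ndufs6, all lower after IRI (2.76% of all genes), and for 0 members higher (2.24%). The range ran from -0.60 (Ndufa12) to 0.27 (Ndufaf7).

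Of the 4 members with the smallest p in iGKO, Ndufv3, Ndufa10 and Ndufa6 were among the 4 called under every setting in fl/fl. Ndufv3 was at 83.2, 86.1, 95.7 and 119 CPM in iGKO sham 1 to 4 and 67.6, 58.4, 71.5 and 63.4 CPM in iGKO IRI 1 to 4. No injured library reached the sham range, and the log2 change was -0.56 (SE 0.15, adjusted p = 0.501). Ndufa10 was at 177, 182, 179.7 and 148 CPM in iGKO sham 1 to 4 and 132, 124, 137 and 119 CPM in iGKO IRI 1 to 4. Its 4 injured libraries again lay below all sham libraries, including iGKO sham 4, and the change was -0.42 (SE 0.12, adjusted p = 0.54). Ndufa6 was at 95.95, 101, 102 and 61.1 CPM in iGKO sham 1 to 4 and 75.4, 62.2, 66.3 and 54.5 CPM in iGKO IRI 1 to 4. The low value of iGKO sham 4 made the groups overlap, and the change was -0.48 (SE 0.16, adjusted p = 0.63). Ndufs6, a zinc-binding accessory subunit of the matrix arm, was at 50.98, 48.1, 54.1 and 48.6 CPM in iGKO sham 1 to 4 and 39.9, 35.4, 42.1 and 43.2 CPM in iGKO IRI 1 to 4. These groups did not overlap, and the change was -0.33 (SE 0.13, adjusted p = 0.689).

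Other members named by their rank in iGKO showed weaker separation. Ndufs8 was at 85.97, 84.7, 85.3 and 76.4 CPM in iGKO sham 1 to 4 and 56.6, 62.1, 81.2 and 72.2 CPM in iGKO IRI 1 to 4, with iGKO IRI 3 inside the sham range and a change of -0.29 (SE 0.18, adjusted p = 0.917). Ndufv2 was at 124, 131, 146 and 47.8 CPM in iGKO sham 1 to 4 and 89.8, 91.9, 102 and 73.8 CPM in iGKO IRI 1 to 4. Its lowest value of all was that of iGKO sham 4, so the groups overlapped, and the change was -0.33 (SE 0.25, adjusted p = 0.946). Ndufa3, a small membrane-arm subunit, was at 59.1, 65.8, 65.04 and 31.8 CPM in iGKO sham 1 to 4 and 46.2, 41.5, 43.9 and 36.9 CPM in iGKO IRI 1 to 4. Here too iGKO sham 4 was the lowest of the 8 libraries, and the change was -0.40 (SE 0.18, adjusted p = 0.774). Ndufa12 was at 53.01, 63.8, 60.3 and 23.7 CPM in iGKO sham 1 to 4 and 49.8, 27.8, 32.4 and 22.3 CPM in iGKO IRI 1 to 4. The values scattered widely in both groups, and the change was -0.60 (SE 0.29, adjusted p = 0.793). Ndufaf2 was at 6.61, 5.57, 5.70 and 2.76 CPM in iGKO sham 1 to 4 and 4.75, 4.01, 3.79 and 2.30 CPM in iGKO IRI 1 to 4, with the lowest values in iGKO sham 4 and iGKO IRI 4 and a change of -0.47 (SE 0.27, adjusted p = 0.878). Ndufaf7, a methyltransferase that acts in complex I assembly, was at 21.8, 20.5, 24.1 and 21.97 CPM in iGKO sham 1 to 4 and 20.5, 22.3, 30.3 and 33.6 CPM in iGKO IRI 1 to 4. It was highest in iGKO IRI 3 and 4, and its change of 0.27 (SE 0.17, adjusted p = 0.909) turned to -0.03 without the 5 libraries with a GC tilt.

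Within iGKO IRI the libraries formed pairs. The subunit medians were -0.40 and -0.39 in iGKO IRI 1 and 2 but 0.03 and 0.05 in iGKO IRI 3 and 4, and the assembly factor medians were -0.21, -0.21, 0.08 and 0.19. In iGKO IRI 1 and 2, 35 and 36 of 36 subunits lay below the fl/fl sham mean, against 17 and 16 in iGKO IRI 3 and 4. The higher pair was the pair with a GC tilt. Of these, iGKO IRI 3 also held the most fat marker RNA. The injury markers summed to 196, 192, 118 and 200 CPM in iGKO IRI 1 to 4 and to 64.3, 202, 47.0 and 62.0 CPM in iGKO sham 1 to 4, so that iGKO sham 2 stood above every injured iGKO library. Proximal tubule markers summed to 14130, 13390, 15500 and 17520 CPM in iGKO IRI 1 to 4, all below the 18220 to 21970 CPM of iGKO sham. Thick ascending limb markers were at 1749 CPM in iGKO IRI 1 and 3585 to 4055 CPM in iGKO IRI 2 to 4, against 3529 to 4593 CPM in iGKO sham. Neutrophil markers summed to 10.5 to 33.6 CPM in iGKO IRI and 2.16 to 17.6 CPM in iGKO sham. None of these markers was called in iGKO (edgeR), with 2 injury and 2 neutrophil markers at an unadjusted p under 0.05, and their part in the Nduf levels was not tested. Without the 5 libraries with a GC tilt, the injured iGKO group held only iGKO IRI 1 and 2, the lower pair. In that fit the iGKO response had a median of -0.42 over the subunits (36 of 36 below 0) and -0.26 over the assembly factors (7 of 8 below 0). Again 0 members were called. With the same libraries left out, the fl/fl response had medians of -0.66 and -0.38. The iGKO medians thus moved further below 0 when iGKO IRI 3, iGKO IRI 4 and the other 3 libraries were left out, and stayed above those of fl/fl.

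**Figure D4:**
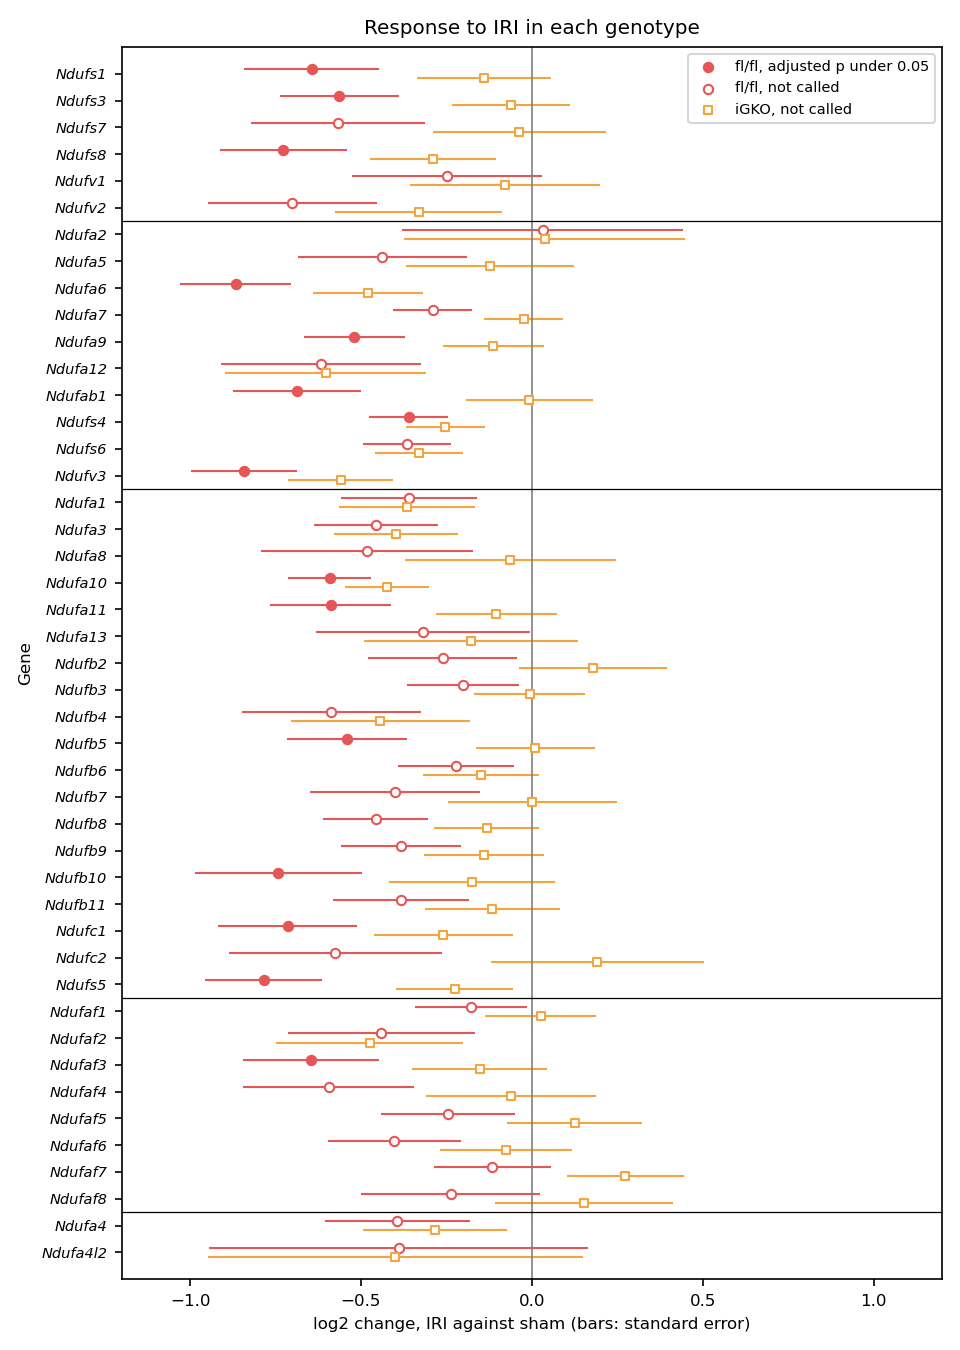
Log2 change (IRI against sham) of 45 of the 46 Nduf genes in fl/fl (circles, filled where the adjusted p was under 0.05) and in iGKO (squares, none called), with bars of 1 standard error and genes grouped by role. The fl/fl value lies left of the iGKO value in most genes, and Ndufa1, Ndufa2, Ndufa12 and Ndufaf2 have both values close together.

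Set side by side, the change was below 0 in both genotypes for 37 members and lower in fl/fl than in iGKO for 43. The responses of the genotypes rest on separate libraries. Across the 46 genes Spearman's rho between them was 0.473 (0.434 over the 36 subunits and 0.81 over the 8 assembly factors), a description over genes that share libraries and base composition and are not independent. The difference itself is the genotype by operation interaction, the iGKO response minus the fl/fl response. It was above 0 for 43 of 46 members (47.9% of all genes), with a median of 0.32 over the subunits and 0.38 over the assembly factors. No member passed in edgeR or in DESeq2 (0% of all genes in edgeR), the smallest adjusted p was 0.364, and 3 members had an unadjusted p under 0.05 (11.3% of all genes). These were Ndufab1, at 0.68 (SE 0.26, adjusted p = 0.364), Ndufs5, at 0.56 (SE 0.24, adjusted p = 0.407), and Ndufb5, at 0.55 (SE 0.25, adjusted p = 0.416). The differences below 0 with the smallest p were those of Ndufaf2, -0.03 (SE 0.39, adjusted p = 0.983), and Ndufa1, -0.0044 (SE 0.28, adjusted p = 0.997), and both lay near 0. Without fl/fl IRI 1 and iGKO sham 4, 3 members passed, all subunits and all higher, with 3.86% of all genes called higher. The subunit median in that fit was 0.52. Without the 5 libraries with a GC tilt 0 passed and it was 0.24.

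After the sham operation the genotypes were compared to ask whether these genes differed in uninjured kidney. Degs1 mRNA was lowered there but not absent, with a mean of 57.0 CPM in iGKO sham against 100.3 CPM in fl/fl sham. No member was called (edgeR and DESeq2, 0 of 46, with 0% of all genes in edgeR). In edgeR 0 members had an unadjusted p under 0.05 (1.17% of all genes). With 0% of all genes called, even the targeted gene Degs1 did not pass in edgeR. The lack of calls therefore does not show that the Nduf genes were unmoved. Changes were below 0 for 23 members and above 0 for 23, with a median of -0.011 over the subunits and 0.017 over the assembly factors. Without iGKO sham 4 the medians were 0.029 and 0.012, and without the 5 libraries with a GC tilt 0.029 and 0.031, with 0 called in either fit. No member had groups without overlap, a pattern shown by 0.874% of all genes in the lower and 1.05% in the higher direction. The range ran from -0.30 (Ndufc2) to 0.40 (Ndufa2).

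The members at these ends, and those of smallest p, mostly followed iGKO sham 4. Ndufa2 was at 92.4, 76.3 and 91.0 CPM in iGKO sham 1 to 3 and at 247 CPM in iGKO sham 4. Its change against fl/fl sham was 0.40 (SE 0.41, adjusted p = 1), and -0.15 without that library. Ndufv1 was at 264, 240.3, 266 and 458 CPM in iGKO sham 1 to 4 and 286, 328, 234 and 236 CPM in fl/fl sham 1 to 4. The 1 high library set its change of 0.18 (SE 0.28, adjusted p = 1), which was -0.08 without it. Ndufs7, the core subunit beside the ubiquinone site, was at 108, 114, 110.4 and 152 CPM in iGKO sham and 112, 130.5, 88.6 and 97.3 CPM in fl/fl sham. It was likewise highest in iGKO sham 4, and its change was 0.18 (SE 0.25, adjusted p = 1). Ndufaf8, the partner of the assembly factor Ndufaf5, was at 12.3, 9.96, 12.96 and 21.5 CPM in iGKO sham and 13.7, 15.2, 10.8 and 13.1 CPM in fl/fl sham. Its change of 0.10 (SE 0.26, adjusted p = 1) turned to -0.17 without iGKO sham 4.

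Others were low in that library. Ndufaf4 was at 42.4, 37.8, 42.2 and 14.4 CPM in iGKO sham 1 to 4, and its change of -0.18 (SE 0.25, adjusted p = 1) turned to 0.08 without iGKO sham 4. Ndufs5 was at 27.3, 26.1, 29.9 and 15.2 CPM in iGKO sham 1 to 4, with the first 3 within or near the fl/fl sham range, and its change was -0.21 (SE 0.17, adjusted p = 1). Ndufc2, a membrane-arm subunit, was at 78.6, 101, 66.5 and 65.7 CPM in fl/fl sham 1 to 4 and 70.95, 62.3, 67.7 and 52.1 CPM in iGKO sham 1 to 4. It was highest in fl/fl sham 2, the groups overlapped, and the change was -0.30 (SE 0.31, adjusted p = 1). Ndufs6 was at 53.1, 44.2, 43.2 and 45.5 CPM in fl/fl sham 1 to 4, overlapping the iGKO sham values given above, with a change of 0.12 (SE 0.13, adjusted p = 1).

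Within iGKO sham 4 the Nduf genes diverged from each other. Compared with the mean of iGKO sham 1 to 3 on the log2 scale, 6 members were over 1 unit lower: Ndufb4 (-1.59), Ndufaf4 (-1.49), Ndufv2 (-1.48), Ndufa12 (-1.31), Ndufa4 (-1.16) and Ndufaf2 (-1.07). Ndufa2 (1.52) and Ndufa13 (1.05) were over 1 unit higher, while the median over the 46 was -0.14. Across the 46 genes the difference rose with transcript GC content with Spearman's rho 0.593, in 1 library and over genes that are not independent. Ndufaf4, with the lowest GC content of the set (39.5%), was among the lowest, and Ndufa13, with the highest (60.4%), was the second highest. Ndufa2 (51.7%) and Ndufb4 (52.2%), of nearly equal GC content, lay at opposite ends.

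**Figure D5:**
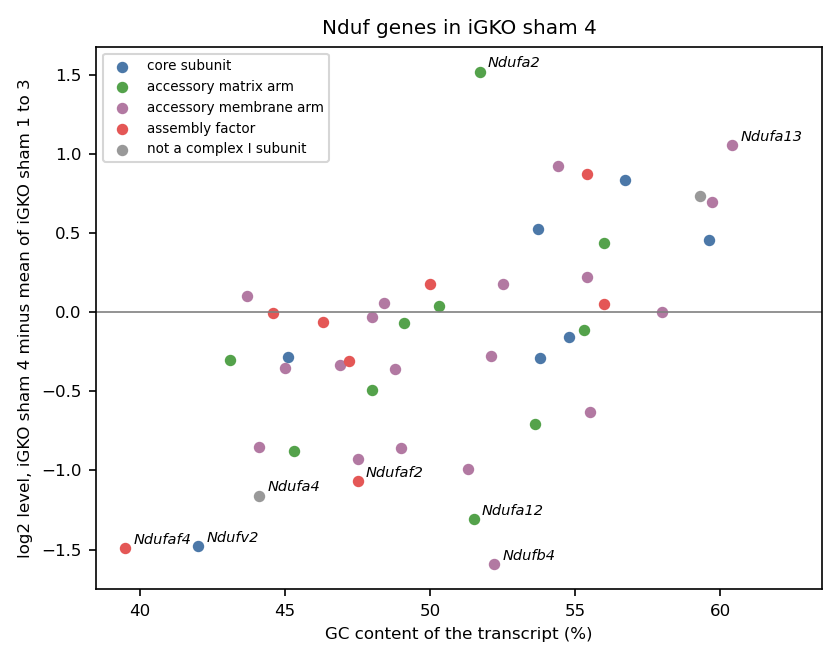
Log2 level of each Nduf gene in iGKO sham 4 minus its mean over iGKO sham 1 to 3 (y axis) against the GC content of its longest coding transcript in percent (x axis), with points coloured by role and genes over 1 log2 unit away named. The points rise from Ndufaf4 at -1.49 on the left to Ndufa13 at 1.05 on the right, and Ndufa2 at 1.52 and Ndufb4 at -1.59 stand off this trend.

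The last comparison asked whether the injured kidneys of the genotypes differed. It shares the fl/fl IRI libraries with the first comparison, so each is given by its own values. After IRI 0 members were called in either direction (edgeR and DESeq2), and the smallest adjusted p was 0.148 in edgeR. Over all genes, edgeR called 0.178% higher in iGKO and 0.673% lower. The level in iGKO was above that in fl/fl for 42 of 46 members (48.6% of all genes), with a median log2 change of 0.36 over the subunits (0.43 over the core subunits) and 0.36 over the assembly factors. An unadjusted p under 0.05 was found for 15 members and for 19.1% of all genes. Only Ndufab1 and Ndufs5 had every iGKO IRI library above every fl/fl IRI library (2.48% of all genes), and no member the reverse (3.04%).

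This comparison turned on fl/fl IRI 1. Without that library 15 members (14 subunits and 1 assembly factor) were called higher in iGKO, with 6.97% of all genes called higher. Without it and iGKO sham 4 there were 23 (20 subunits and 3 assembly factors), with 10.1% of all genes. Without the 5 libraries with a GC tilt, which include iGKO IRI 3 and 4, 2 subunits were called, with 4.56% of all genes, and the median was 0.27 over the subunits and 0.23 over the assembly factors. With 2 libraries left in iGKO IRI, that fit assumes that they vary like the other groups.

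Cell markers were also compared between the injured kidneys. Of the 5 tubular injury markers 3 (Lcn2, Krt20 and Sox9) were lower in iGKO, and their sum of 118 to 200.1 CPM in iGKO IRI lay below the 205 CPM of fl/fl IRI 1 and the 1707 to 2705 CPM of fl/fl IRI 2 to 4. Neutrophil markers (0 of 6 called, 6 at an unadjusted p under 0.05) had a median log2 change of -2.22. Their sums were 10.5 to 33.6 CPM in iGKO IRI, against 24.2 to 208 CPM in fl/fl IRI. Proximal tubule markers (0 of 10 called, 7 at an unadjusted p under 0.05) had a median of 0.72, with sums of 13390 to 17520 CPM in iGKO IRI against 4312 to 16190 CPM in fl/fl IRI. Thick ascending limb markers (0 of 6 called, 2 at an unadjusted p under 0.05) had a median of 0.89. The highest fl/fl IRI sum of the proximal tubule and the thick ascending limb markers was that of fl/fl IRI 1. The part of these markers in the genotype difference of the Nduf genes was not tested.

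Ndufab1 was at 73.6, 69.4, 84.5 and 80.5 CPM in iGKO IRI 1 to 4. All lay above the highest fl/fl IRI library, and the change was 0.52 (SE 0.19, adjusted p = 0.155). Ndufs5 was at 20.2, 19.2, 23.7 and 21.1 CPM in iGKO IRI 1 to 4, again above all 4 fl/fl IRI libraries. Its change was 0.35 (SE 0.17, adjusted p = 0.282). Ndufs7 had the largest change, 0.71 (SE 0.25, adjusted p = 0.156), from 117, 69.2, 55.2 and 47.5 CPM in fl/fl IRI 1 to 4 and 89.2, 92.5, 138 and 154 CPM in iGKO IRI 1 to 4. Both groups were wide, with fl/fl IRI 1 high in its group and iGKO IRI 3 and 4 high in theirs.

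Ndufa11, a membrane-arm subunit, had the smallest adjusted p of the set. It was at 51.1, 36.6, 30.9 and 30.6 CPM in fl/fl IRI 1 to 4 and 42.6, 44.8, 60.2 and 64.9 CPM in iGKO IRI 1 to 4. The 1 overlapping library was fl/fl IRI 1, and the change was 0.51 (SE 0.18, adjusted p = 0.148). Ndufb5, also of the membrane arm, was at 105, 67.6, 58.4 and 73.8 CPM in fl/fl IRI 1 to 4 and 83.6, 92.03, 121 and 122 CPM in iGKO IRI 1 to 4. It overlapped in the same library, with a change of 0.46 (SE 0.17, adjusted p = 0.179). Ndufs3 was at 95.9, 70.2, 57.2 and 65.5 CPM in fl/fl IRI 1 to 4 and 77.6, 79.8, 117 and 116 CPM in iGKO IRI 1 to 4, also overlapping through fl/fl IRI 1, with a change of 0.43 (SE 0.17, adjusted p = 0.196). Ndufv3 was at 67.6, 58.4, 71.5 and 63.4 CPM in iGKO IRI 1 to 4. Its groups overlapped in the same way, and the change was 0.37 (SE 0.15, adjusted p = 0.209).

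Of the assembly factors, Ndufaf3 was at 15.7, 11.7, 19.4 and 19.4 CPM and Ndufaf7 at 20.5, 22.3, 30.3 and 33.6 CPM in iGKO IRI 1 to 4. The former ranged from inside the fl/fl IRI values to the sham level, with a change of 0.51 (SE 0.20, adjusted p = 0.187). Ndufaf7, at 25.4, 20.1, 15.9 and 19.3 CPM in fl/fl IRI 1 to 4, overlapped it through fl/fl IRI 1, with a change of 0.40 (SE 0.17, adjusted p = 0.212). Ndufa1, a short membrane-arm subunit, had the lowest change, -0.15 (SE 0.20, adjusted p = 0.714). It was at 23.9, 29.7, 27.4 and 34.3 CPM in fl/fl IRI 1 to 4 and 32.9, 21.4, 26.4 and 23.4 CPM in iGKO IRI 1 to 4, and the values of the groups were interleaved.

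The remaining members of the set, which are not complex I genes, were not called in any comparison of all 16 libraries. Ndufa4, the complex IV subunit, was at 195, 149, 148 and 164 CPM in fl/fl sham 1 to 4 and 111, 128, 109 and 153 CPM in fl/fl IRI 1 to 4. Its fl/fl IRI 4 value lay among the sham libraries, and its change of -0.39 (SE 0.21, adjusted p = 0.22) did not pass. Without iGKO sham 4, which shares the estimate of spread, Ndufa4 was called lower in fl/fl at -0.39 (SE 0.13, edgeR adjusted p = 0.0446). In iGKO it was at 168, 168, 186 and 77.8 CPM after sham and 117, 113, 134 and 129 CPM after IRI, with a change of -0.28 (SE 0.21, adjusted p = 0.948). Ndufa4l2, known as a hypoxia-responsive gene, was at 3.71, 3.05, 4.89 and 4.61 CPM in fl/fl sham 1 to 4 and 3.49, 1.76, 6.75 and 0.442 CPM in fl/fl IRI 1 to 4. These low values spread over the whole sham range and beyond it, and the change was -0.39 (SE 0.55, adjusted p = 0.68). In iGKO it was at 5.78, 3.65, 3.30 and 6.94 CPM after sham and 2.08, 5.86, 4.99 and 1.89 CPM after IRI, also without separation.

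Complex I genes outside the Nduf symbols were taken from a list. Of 14 assembly factors without an Nduf symbol, 13 were in the table and tested, and 2 were lower after IRI in fl/fl and 0 higher. Ecsit, which works with Ndufaf1 in assembling the membrane arm, was at 67.2, 68.0, 69.2 and 65.3 CPM in fl/fl sham 1 to 4 and 56.3, 50.9, 39.2 and 26.5 CPM in fl/fl IRI 1 to 4. The groups did not overlap, and the log2 change was -0.64 (SE 0.18, adjusted p = 0.0233). Dmac2, a factor of the distal membrane arm, was at 59.2, 74.0, 56.5 and 63.7 CPM in fl/fl sham 1 to 4 and 52.8, 36.0, 28.1 and 28.8 CPM in fl/fl IRI 1 to 4. It was likewise without overlap, and its change was -0.80 (SE 0.19, adjusted p = 0.0126). The median of the 13 was -0.38 in fl/fl and -0.12 in iGKO, where 0 of 13 were called and 0 had an unadjusted p under 0.05 in edgeR (DESeq2 also called 0), beside -0.32 and -0.018 for the 8 Ndufaf genes. Without fl/fl IRI 1 and iGKO sham 4 the medians of the 13 were -0.47 (6 called lower) and -0.08 (0 called), and without the 5 libraries with a GC tilt -0.51 (5 lower) and -0.23 (0 called).

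The 7 mitochondrially encoded subunits (mt-Nd1 to mt-Nd6 and mt-Nd4l), which form the core of the membrane arm, had a median of -0.62 in fl/fl and -0.65 in iGKO, with 0 of 7 called and 0 at an unadjusted p under 0.05 in either (edgeR, with 0 also called by DESeq2). Their summed level was 14340 to 21150 CPM in fl/fl sham, 8564 to 15180 CPM in fl/fl IRI, 6378 to 12480 CPM in iGKO IRI and 1858 to 21590 CPM in iGKO sham, where iGKO sham 4 was the low library. Without iGKO sham 4 the medians were -0.61 in fl/fl and -0.98 in iGKO, with 4 and 5 of 7 at an unadjusted p under 0.05 and 0 called. Without the 5 libraries with a GC tilt they were -0.57 (3 called lower) and -0.82 (0 called). In iGKO IRI 1 to 4 the sums were 12480, 10710, 8172 and 6378 CPM, lowest in the GC-tilted pair in which the nuclear subunits were highest. Against fl/fl IRI the iGKO IRI median was -0.47 (0 of 7 called), -0.61 without fl/fl IRI 1 and iGKO sham 4 (1 called lower), and -0.27 without the 5 libraries (0 called). The summed level of the nuclear subunits was highest in iGKO IRI 4 (4064 CPM) and lowest in fl/fl IRI 3 (2058 CPM). Ppargc1a, a coactivator of genes for mitochondrial proteins, was at 127, 107, 139 and 128 CPM in fl/fl sham 1 to 4 and 79.6, 63.8, 43.7 and 46.5 CPM in fl/fl IRI 1 to 4. No library of these groups overlapped, and the change was -1.10 (SE 0.21, adjusted p = 0.00343). In iGKO IRI 1 to 4 it was at 110.0, 100.5, 118 and 83.7 CPM, above all fl/fl IRI libraries, with a change against them of 0.82 (SE 0.21, adjusted p = 0.0633) that did not pass.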

How the data were processed

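RNA of 16 mouse kidney cortex samples was measured by strand-specific sequencing after ribosomal RNA removal, per the labels' protocols. The deposited file holds counts per gene, with no normalization. Per the submitters' processing notes, the authors used cutadapt 1.16, STAR 2.7.9a, featureCounts 1.6.3 and DESeq2 1.36.0 on GRCm39. The strand setting of the counting is not given in the sources used here. Of 56980 gene IDs, 52073 matched a symbol. All per-sample columns were used.

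Counts were fitted in edgeR 4.0.16 (R 4.3.3) by the quasi-likelihood test over all 16 libraries, with 1 coefficient per group and TMM scaling. filterByExpr left 17972 genes, and p-values were adjusted over them by the Benjamini-Hochberg method with a threshold of 0.05. Standard errors were taken from the log2 change and the F statistic. CPM were computed from the counts with TMM-scaled library sizes, and log2 ratios were taken after adding a prior count of 2. The fit was tested on simulated data. Total counts of 12704273 to 18816343 per library left members between 7 and 6804 reads. Highest correlation between libraries was 0.985, and no pair was treated as a duplicate.

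The members and lists were chosen with earlier results of these data known. Named members are the 2 with the smallest p in each role and the highest and lowest log2 change in each comparison, the 2 with the smallest p in each direction of the interaction, Ndufa4 and Ndufa4l2, 26 in all. The 4 other called members were named after their values were seen. Further members are given with summary values only, such as a log2 change or the end of a range. Alternatives were other scalings, DESeq2 1.42.0, other filters, a replicate block, only the groups compared and libraries left out. A GC correction and leaving out the 5 libraries with a GC tilt were chosen after seeing the data. GC content, transcript lengths and exon overlaps came from GENCODE M21 on GRCm38, and promoter windows from RefSeq, GRCm38.p6. No protein sequence was used here. The counts and medians cover all 46 members, of which 1 is not reported singly here.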

Additional observations from a re-analysis of the deposited data

Results flagged for a closer look

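Levels of 30 members, the 26 named by rank or role and the 4 other called members, were examined in the 4 groups, 120 groups of 4 libraries in all, for a library farther from the nearest of the others than 82.9% of the group's range. Chance gives about 1 in 20 independent groups. That rate does not apply here, because the members were picked from these same data and share libraries. In all, 12 were found, 9 of them in iGKO sham 4. In that library Ndufa2 (247.3 CPM), Ndufs7 (152.3 CPM) and Ndufv1 (458.4 CPM) stood above the other iGKO sham libraries. Ndufa1 (19.88 CPM), Ndufa10 (148.1 CPM), Ndufa4 (77.82 CPM), Ndufa6 (61.11 CPM), Ndufs8 (76.41 CPM) and the assembly factor Ndufaf4 (14.42 CPM) stood below them. The same library had the strongest GC tilt of all (0.687) and the lowest share of mitochondrially encoded counts (0.443%). Its part in these levels was not tested. Ndufa2 was also high in fl/fl sham 2 (139 CPM), and Ndufaf8 in iGKO IRI 4 (23.51 CPM), both libraries with a GC tilt, and Ndufa9 was high in fl/fl sham 1 (162 CPM).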

How the results depend on the processing

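Depth was lowest for Ndufaf2 (34 to 102 reads per library) and Ndufa4l2 (7 to 103), for which counting error adds most to the spread between libraries. The count of members lower after IRI in fl/fl (15, with 7.01% of all genes) was 7 with no filter on low counts (3.24%). It was 8 with only the groups compared (3.61%) and 30 without fl/fl IRI 1 and iGKO sham 4 (14.2%). Without the 5 libraries with a GC tilt it was 34 (13.5%). It ranged from 4 to 24 when single libraries were left out, with 3.07% to 11.6% of all genes. DESeq2 size factors in edgeR gave 15 (7% of all genes), upper-quartile scaling 17 (7.64%) and the DESeq2 test 19 (9.57%). The filter at 10 reads gave 15 (6.93%) and the GC correction 21 (9.53%). Members higher in iGKO after IRI (0) came to 23 without fl/fl IRI 1 and iGKO sham 4 (10.1% of all genes) and 2 without the 5 libraries (4.56%). With single libraries left out they ranged from 0 to 15 (6.97% of all genes at 15). For the interaction (0), 3 were higher without fl/fl IRI 1 and iGKO sham 4 (3.86% of all genes). Its median over the subunits then moved from 0.32 to 0.52, and that over the assembly factors from 0.38 to 0.21 without iGKO IRI 4. The cause of these differences was not tested.

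With the replicate number as a block (replicate block), the count lower in fl/fl was 10 (6.6% of all genes). In the other comparisons 0 members were called. Same-numbered libraries did not deviate together, since 6 of 24 pairs correlated above 0.1 (range -0.335 to 0.399), so the numbers were not taken to pair the samples.

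Under the alternatives, log2 changes were followed for the members named by rank, each in its own comparison, and for all called members. Ndufa4 and Ndufa4l2 were not included. Of these log2 changes, 1051 kept direction and side of the threshold, 109 lost a call, 19 gained one and 39 changed sign. Sign changes were all in members without a call. Ndufa2 after IRI in fl/fl was -0.008 with the replicate block, -0.335 without fl/fl IRI 1 and iGKO sham 4, -0.108 without the 5 libraries and -0.345 to 0.264 with single libraries left out. Ndufaf7 after IRI in iGKO was -0.028 without the 5 libraries. In iGKO against fl/fl after sham, leaving out fl/fl IRI 1 and iGKO sham 4 gave -0.077 for Ndufv1, -0.147 for Ndufa2, 0.079 for Ndufaf4 and -0.166 for Ndufaf8. Leaving out the 5 libraries gave 0.032 for Ndufaf4 and -0.092 for Ndufaf8. With single libraries left out these ranged from -0.077 to 0.287 (Ndufv1), -0.148 to 0.637 (Ndufa2), -0.294 to 0.079 (Ndufaf4) and -0.166 to 0.243 (Ndufaf8). The interaction of Ndufaf2 was 0.022 with upper-quartile scaling, 0.003 with the replicate block and -0.234 to 0.138 with single libraries left out. That of Ndufa1 was 0.016 with DESeq2 size factors, 0.054 with upper-quartile scaling, 0.015 in the DESeq2 test, 0.017 with no filter, 0.02 with the GC correction and -0.179 to 0.089 with single libraries left out.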

Other observations

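Ndufb1-ps lies outside the rule because of its symbol, although RefSeq lists the gene as protein-coding Ndufb1, a small subunit of the membrane arm. It had 60 to 223 reads in each of the 16 libraries. Its level was 12.9, 6.68, 11.4 and 9.85 CPM in fl/fl sham 1 to 4 and 7.38, 10.9, 11.1 and 12.1 CPM in fl/fl IRI 1 to 4. The groups overlapped, with a log2 change of 0.03 and an adjusted p of 0.962 (edgeR). In iGKO it was at 13.4, 12.0, 12.5 and 4.04 CPM after sham and 10.5, 8.82, 8.97 and 8.04 CPM after IRI. Here iGKO sham 4 was again the lowest library, and the log2 change was -0.21 with an adjusted p of 0.991.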
